A study of Homo sapiens with 10 samples.

Results

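PRR36, MEGF11 and CYFIP2 are 3 protein-coding genes that were picked from the 63140 gene identifiers of a count table because their transcripts climbed mainly between 12 and 96 h of WA-68. All 3 had enough counts to be among the 16382 genes tested. Because measured values chose them, their own time courses are described here with standard errors and without p-values. Tests are kept for genes that the choice did not use: their partners in known complexes, their paralogs and their neighbours on the chromosome.

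All libraries came from HS-SY-II, a human cell line established from a synovial sarcoma, so every value describes a single line. One group received the DMSO vehicle alone, and the other 4 received 100 nM WA-68, a PROTAC degrader of the bromodomain protein BRD9, for 12, 24, 48 or 96 h. There were 2 biological replicates per group and 10 libraries together. When the DMSO cultures were harvested is not stated. The labels give no DMSO group for each time, so hours with WA-68 and hours in culture cannot be told apart. Poly(A) RNA was counted per gene, with 7349744 to 13200051 counts per library. Levels are TMM-scaled CPM, a gene's counts relative to the size of its library, given as mean ± SD with n = 2, and changes are fitted by edgeR on the log2 scale, with a standard error (SE). BRD9 belongs to ncBAF, a form of the BAF chromatin remodeller on which synovial sarcoma cells with the SS18-SSX fusion depend.

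CYFIP2 is a subunit of the WAVE regulatory complex, which keeps the WAVE proteins inactive until Rac GTPase binds the CYFIP subunit and then lets the Arp2/3 complex build branched actin. It is abundant in brain, binds the fragile X protein FMRP, was also described as a p53-inducible transcript, and its messenger RNA is a substrate of A-to-I editing. MEGF11 is a single-pass membrane protein with a row of EGF-like repeats, related to the engulfment receptor MEGF10, and it is known for the even spacing of neurons in the retina. PRR36 is named for its proline-rich sequence, and no role is given to it here.

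The genes lie on 3 different chromosomes. In GENCODE 29 on GRCh38, PRR36 (ENSG00000183248) spans 5.66 kb of chromosome 19 (7868719 to 7874379, minus strand). MEGF11 (ENSG00000157890) spans 358.7 kb of chromosome 15 (65895079 to 66253747, minus strand), and CYFIP2 (ENSG00000055163) spans 129.5 kb of chromosome 5 (157266079 to 157395595, plus strand). The 250 bases before the RefSeq start of each gene are printed as a description, and their part in the climb was not tested. They come from RefSeq on GRCh38.p14, read on the strand of the gene, at chr19:7874391-7874640 for PRR36, chr15:66253751-66254000 for MEGF11 and chr5:157265873-157266122 for CYFIP2. The RefSeq start of CYFIP2 lies inside the GENCODE gene, so the end of its stretch, with the last of its GC boxes, overlaps that gene. Capitals mark the GC box, GGGCGG on either strand.

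PRR36: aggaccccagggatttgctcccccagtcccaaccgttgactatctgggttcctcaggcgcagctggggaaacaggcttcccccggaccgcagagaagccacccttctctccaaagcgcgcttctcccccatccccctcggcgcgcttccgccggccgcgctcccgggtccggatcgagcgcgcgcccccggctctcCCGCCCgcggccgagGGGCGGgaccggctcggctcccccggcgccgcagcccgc
MEGF11: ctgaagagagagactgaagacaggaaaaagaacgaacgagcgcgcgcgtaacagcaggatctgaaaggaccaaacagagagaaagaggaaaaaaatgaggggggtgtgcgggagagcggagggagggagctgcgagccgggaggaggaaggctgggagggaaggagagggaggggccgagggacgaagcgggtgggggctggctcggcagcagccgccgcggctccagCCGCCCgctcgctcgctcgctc
CYFIP2: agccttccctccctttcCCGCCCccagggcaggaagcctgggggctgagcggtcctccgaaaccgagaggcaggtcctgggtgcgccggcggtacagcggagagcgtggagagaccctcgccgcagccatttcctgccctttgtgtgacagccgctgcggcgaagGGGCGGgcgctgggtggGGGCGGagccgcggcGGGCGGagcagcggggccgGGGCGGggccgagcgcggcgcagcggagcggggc

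The 3 stretches are rich in G and C, at 74.4% for PRR36, 64.8% for MEGF11 and 76.4% for CYFIP2, beside a median of 58% over 35116 RefSeq promoters of the same length. They hold 31, 22 and 30 CpG dinucleotides in that order, beside a median of 11. The 35116 promoters were not limited to genes expressed here, so these medians and the shares below are no background for expressed genes. The GC box occurs 2 times before PRR36, 1 time before MEGF11 and 5 times before CYFIP2. At least 1 GC box stands in 42.6% of all promoters, at least 2 in 24.3% and at least 5 in 4.15%. A TATA box (TATAAA), an E-box (CACGTG), a CRE (TGACGTCA) and an AP-1 element (TGANTCA), sought on both strands, have no match in any of the 3 stretches. They match in 10.7%, 6.345%, 1.65% and 6.57% of all promoters. A further RefSeq start of CYFIP2 at chr5:157269074-157269323 has 2 CpG dinucleotides and no GC box, and a gene count cannot tell which start was used.

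PRR36 rose by the highest fold of the 3. It stood at 3.19 CPM in replicate 1 and 3.43 CPM in replicate 2 of DMSO, at 4.36 and 2.99 CPM at 12 h and at 4.90 and 5.28 CPM at 24 h. It then stood at 11.8 and 8.02 CPM at 48 h and at 15.3 and 23.2 CPM at 96 h. The 12 h libraries lay on either side of the DMSO libraries, while both 24 h, both 48 h and both 96 h libraries lay above every library of the groups before them. Of all genes tested, 22.2%, 22.9% and 23% had both libraries above both DMSO libraries at 24, 48 and 96 h, 18.3% at 24 h above 12 h, 20% at 48 h above 24 h and 20.2% at 96 h above 48 h. These shares are for pairs of groups, and the share above all earlier groups together was not computed. The group means of PRR36 were 3.31 ± 0.17 CPM in DMSO and 19.2 ± 5.58 CPM at 96 h, a fold change of 5.71 (log2 fold change 2.51, SE 0.24). Its change by 12 h was 0.16 (SE 0.31) on the log2 scale, smaller than its own error, and it was -0.14 without replicate 1 and 0.41 without replicate 2 of 12 h.

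MEGF11 rose in smaller steps than PRR36 after 12 h. It stood at 2.88 and 1.89 CPM in replicates 1 and 2 of DMSO, at 4.14 and 2.99 CPM at 12 h and at 4.52 and 4.40 CPM at 24 h. It then stood at 6.47 and 5.06 CPM at 48 h and at 7.49 and 11.5 CPM at 96 h. No 2 adjacent groups overlapped, although the gap between DMSO and 12 h was smaller than the spread within either group. Of the genes tested, 21.4% had both 12 h libraries above both DMSO libraries. The shares were 18.3% for 24 h above 12 h, 20% for 48 h above 24 h and 20.2% for 96 h above 48 h. The mean went from 2.38 ± 0.70 CPM in DMSO to 9.50 ± 2.84 CPM at 96 h, a fold change of 3.74 (log2 fold change 1.90, SE 0.27). By 12 h the log2 fold change was 0.53 (SE 0.32). Leaving out replicate 1 or replicate 2 of DMSO gave 0.91 or 0.31, and leaving out replicate 1 of 12 h gave 0.28.

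CYFIP2 changed least up to 48 h and most in the last interval. It stood at 1.79 and 1.89 CPM in replicates 1 and 2 of DMSO, at 2.68 and 2.64 CPM at 12 h and at 2.01 and 2.94 CPM at 24 h. It then stood at 2.89 and 3.33 CPM at 48 h and at 7.12 and 9.26 CPM at 96 h. The 24 h libraries lay on either side of the 12 h libraries and overlapped those of 48 h, and both 96 h libraries lay above all 8 others. The choice of the gene favoured that last separation, and 20.2% of the genes tested had both 96 h libraries above both 48 h libraries. The share with both above all 8 others was not computed. The mean went from 1.84 ± 0.073 CPM in DMSO to 8.19 ± 1.52 CPM at 96 h, a fold change of 4.38 (log2 fold change 2.13, SE 0.27).

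**Figure D1:**
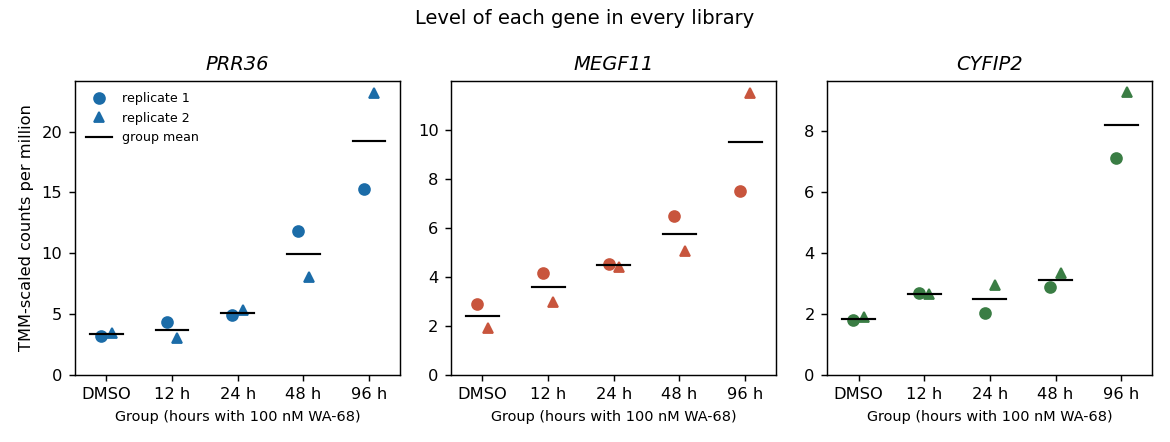
The level of PRR36, MEGF11 and CYFIP2 in TMM-scaled CPM (vertical axis, from 0 in each panel) by group (horizontal axis), with replicate 1 as circles, replicate 2 as triangles and the group mean as a bar. For all 3 genes, chosen for this rise, both 96 h libraries lie above every other library, and replicate 2 of 96 h lies above replicate 1. The share of all genes with both 96 h libraries above every other was not computed.

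Between 12 and 96 h, the interval that chose the genes, PRR36 rose 5.10-fold (log2 fold change 2.35, SE 0.24), CYFIP2 3.02-fold (1.59, SE 0.26) and MEGF11 2.59-fold (1.37, SE 0.26). Of the genes tested, 23.5% had both 96 h libraries above both 12 h libraries, as these 3 did by choice, and edgeR called 4.13% in either direction. Sorted by this fold, PRR36 was number 3 of the 16382, CYFIP2 number 33 and MEGF11 number 62. A log2 fold change of at least 1 was reached by 221 genes, and in 84 of them the group mean was higher at each of the 3 steps from 12 to 96 h. PRR36 and MEGF11 are among those 84. CYFIP2 is not, since its 24 h mean of 2.47 ± 0.66 CPM lay below its 12 h mean of 2.66 ± 0.029 CPM by less than the 24 h spread.

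The 3 courses differ in where the rise sat. For PRR36 the step from 12 to 24 h made up 20% of the log2 rise between 12 and 96 h, the step to 48 h 40.8% and the step to 96 h 39.2%. For MEGF11 these shares were 23.3%, 27.3% and 49.4%. For CYFIP2 the last step alone made up 86.2% (log2 fold change from 48 to 96 h 1.37, SE 0.26). The last step was 0.92 (SE 0.21) for PRR36 and 0.68 (SE 0.24) for MEGF11. Across all genes few changes passed the edgeR test in this last interval (0.0366% of those tested), and 0.757% did between 24 and 48 h. The differences between the 3 courses were not tested, because the same values chose the genes.

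**Figure D2:**
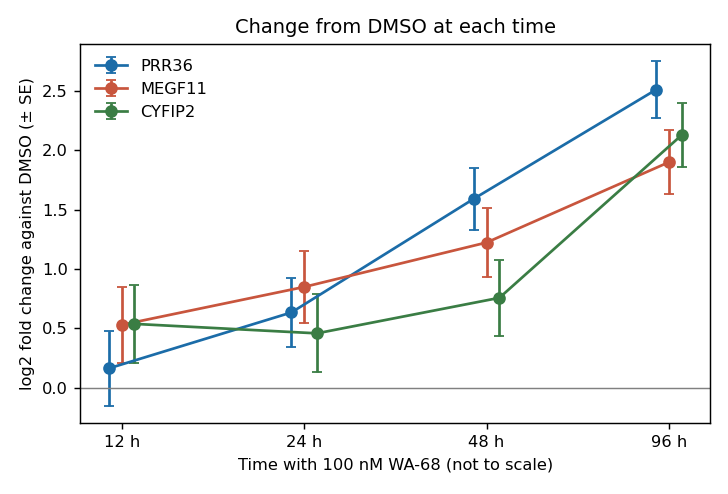
The log2 fold change against DMSO (vertical axis) at 12, 24, 48 and 96 h of WA-68 (horizontal axis, evenly spaced and not to scale), with bars of ± 1 SE from edgeR. PRR36 and MEGF11 climb at every time, while CYFIP2 stays between 0.46 and 0.76 until 48 h and reaches 2.13 at 96 h. All 4 times share the same DMSO libraries.

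By 12 h MEGF11 had 27.9% of its 96 h log2 change against DMSO, CYFIP2 25.2% and PRR36 6.48%. For MEGF11 and PRR36 this share rests on 12 h values that moved with the library left out, as given above. The 12 h value of CYFIP2 was 0.54 with an SE of 0.33, beside an SE of 0.32 for MEGF11. It stayed between 0.49 and 0.57 with 1 library left out and was 0.60 with library size only. Behind it lie 16 to 24 reads per library. By 48 h the shares were 64.3% for MEGF11, 63.4% for PRR36 and 35.6% for CYFIP2. At 12 h MEGF11 and CYFIP2 had both libraries above both DMSO libraries, as did 21.4% of the genes tested, and PRR36 did not. Against DMSO, edgeR called 3.15% of all genes at 12 h, 3.6% at 24 h, 9.39% at 48 h and 13% at 96 h. These comparisons share the same DMSO libraries.

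In CPM per kilobase of exon (RPKM), PRR36 was the most abundant of the 3 in every group. It stood at 0.742 ± 0.038 RPKM in DMSO and 4.31 ± 1.25 at 96 h. MEGF11 stood at 0.2425 ± 0.071 and 0.9665 ± 0.29 RPKM, and CYFIP2 at 0.175 ± 0.0070 and 0.780 ± 0.14. The levels of MEGF11 and CYFIP2 did not overlap in DMSO, where MEGF11 was higher, and overlapped at 96 h. All are low: 16 to 165 reads per library lie behind these values, and the mean CPM of CYFIP2, MEGF11 and PRR36 exceeds that of 23.8%, 27.9% and 33.5% of the genes tested.

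The second replicates of DMSO and of 96 h differed most from the rest, at -24.2 and -26.0 on the second principal component of log2 CPM, where the other 8 lay between -0.71 and 14.4. Without both of them the rise from 12 to 96 h was 2.06 on the log2 scale for PRR36, 1.07 for MEGF11 and 1.42 for CYFIP2. Against DMSO, MEGF11 rose by 1.38 without them, in place of 1.90. Replicate 2 of 96 h was the higher library for each of the 3 genes, which share those libraries. Mitochondrial genes took 10.9% of its counts, beside 6.79% to 8.75% in the other 9 libraries, and the part of this in the levels was not tested. Across the 10 libraries the log2 levels of PRR36 and MEGF11 had a Pearson correlation of 0.939, those of PRR36 and CYFIP2 0.889 and those of MEGF11 and CYFIP2 0.862. The genes were chosen for the same rise, so high correlations came with the choice. After subtracting group means the correlations were 0.745, 0.293 and 0.167, and these rest on only 1 replicate difference per group.

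The markers of the cell line were present throughout. All 8 synovial sarcoma markers, such as the corepressor TLE1 and the Wnt receptor FZD10, were detected, with a summed level of 2228 to 2521 CPM. Leukocyte markers summed to at most 0.389 CPM and endothelial markers to at most 0.196 CPM. BRD9 transcript stood at 104.1 ± 5.61 CPM in DMSO and 88.7 ± 0.74 CPM at 96 h (log2 fold change -0.23, SE 0.089, edgeR adjusted p = 0.0935), and a transcript does not report the degraded protein. The 13 neuronal markers summed to 137.4 to 146 CPM in DMSO, 135 to 149.5 at 12 h, 157.8 to 166.2 at 24 h, 201.8 to 206 at 48 h and 201.9 to 224.4 at 96 h. Among them 5 (SYT1, ELAVL4, DCX, NEFM and GAP43) were at 0 in every library, and MAP2 and RBFOX3 made up most of the sum. MAP2, a microtubule protein of neurons, stood at 33.9 and 34.4 CPM in DMSO and 89.4 and 90.9 CPM at 96 h. RBFOX3, a neuronal splicing factor, stood at 84.3 and 91.3 CPM in DMSO, 64.1 and 61.1 CPM at 12 h and 87.2 and 108.5 CPM at 96 h, and SYP, a synaptic vesicle protein, at 8.32 and 7.57 CPM in DMSO and 5.81 and 6.74 CPM at 96 h. The 5 epithelial markers summed to 2.176 to 4.019 CPM in DMSO and 4.307 to 8.139 CPM at 96 h. The part of these markers in the climb of the 3 genes was not tested, and in bulk RNA more cells with a transcript and more transcript per cell cannot be told apart.

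The partners of CYFIP2 in the WAVE regulatory complex did not pass the test. Of 10 listed genes 8 were tested, and edgeR called 0 of 8 at 96 h against 12 h, beside 4.13% of all genes. With so few genes, 0 calls is near that share and does not set the partners apart. None reached an unadjusted p under 0.05 in that comparison (0 of 8), and DESeq2 called 0. The share of all genes at an unadjusted p under 0.05 was not computed, so such counts, here and below, have no background beside them. Their median log2 fold change was 0.054, beside -0.010 for all genes tested. CYFIP1, the paralog that can take the place of CYFIP2 in the complex, stood at 63.4 ± 2.09 CPM in DMSO, 67.5 ± 1.94 at 12 h and 70.2 ± 4.39 at 96 h (log2 fold change from 12 to 96 h 0.053, SE 0.095, edgeR adjusted p = 0.815). NCKAP1, the subunit that pairs with CYFIP, went from 189.5 ± 1.64 to 165.2 ± 14.5 CPM between 12 and 96 h (-0.20, SE 0.096, adjusted p = 0.288).

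The WAVE proteins themselves, which activate Arp2/3, had log2 fold changes from 12 to 96 h of 0.15 (SE 0.099) for WASF1, 0.081 (SE 0.096) for WASF2 and 0.040 (SE 0.10) for WASF3. The ABI adaptors had 0.13 (SE 0.096) for ABI1 and 0.049 (SE 0.088) for ABI2, and the small subunit BRK1 had 0.055 (SE 0.11). The adjusted p of these 6 genes by edgeR ran from 0.452 for WASF1 to 0.879 for WASF3. Against DMSO edgeR called 0 of the 8 at 96 h (0 at an unadjusted p under 0.05) and 0 at 12 h (1 at an unadjusted p under 0.05, WASF1, lower). DESeq2 called 0 in both, but the 0 at 12 h did not hold in every alternative analysis. NCKAP1L and ABI3, the forms typical of blood cells, had too few counts to test.

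**Figure D3:**
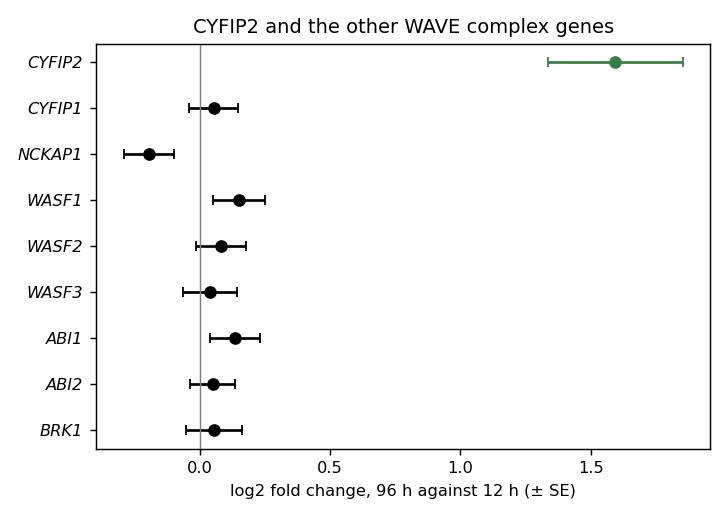
The log2 fold change of CYFIP2 and the 8 other tested genes of the WAVE regulatory complex from 12 to 96 h of WA-68 (horizontal axis), with bars of ± 1 SE from edgeR. The 8 partners lie between -0.20 and 0.15, and CYFIP2, which was chosen for its rise, lies at 1.59.

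CYFIP1 was the more abundant of the pair in every library. Per kilobase of exon, CYFIP1 stood at 6.09 ± 0.20 RPKM in DMSO and 6.74 ± 0.42 at 96 h. CYFIP2 made up 2.66% and 2.94% of the summed RPKM of both genes in replicates 1 and 2 of DMSO, 3.87% and 3.67% at 12 h and 2.80% and 4.42% at 24 h. It made up 3.82% and 4.64% at 48 h and 9.53% and 11.1% at 96 h. The share was 2.80% ± 0.20 in DMSO and 10.3% ± 1.14 at 96 h, and the 96 h libraries did not overlap those of any other group. CYFIP1 changed little, so this share largely restates the rise for which CYFIP2 was chosen. Of the genes tested, 23% had both 96 h libraries above both DMSO libraries, and the share above every other group was not computed.

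The Rac GTPase and Arp2/3 genes are the activators and the machinery downstream of WAVE. Among 13 tested, edgeR called 0 at 96 h against 12 h, beside 4.13% of all genes, with a median log2 fold change of -0.058. At an unadjusted p under 0.05 there were 2, of them 0 higher, and DESeq2 called 0. The edgeR result of 0 did not hold in every alternative analysis. At 96 h against DMSO it called 1, lower, beside 13% of all genes. This was RAC3, the Rac form enriched in neurons, which stood at 49.8 and 60.8 CPM in DMSO, 47.3 and 40.1 CPM at 12 h, and 36.1 and 37.1 CPM at 96 h. Its log2 fold change at 96 h was -0.59 (SE 0.11, edgeR adjusted p = 0.000934), and it kept its call in all 20 alternative analyses.

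FMRP is the RNA-binding protein that CYFIP proteins bind. Of 6 genes for FMRP and its partners, edgeR called 0 at 96 h against 12 h (0 at an unadjusted p under 0.05, 0 by DESeq2) and 0 at 96 h against DMSO (2 at an unadjusted p under 0.05, 0 by DESeq2). The shares over all genes were 4.13% and 13%, and 0 to 2 of the 6 were called at 96 h against DMSO across the 20 alternatives. FMR1 stood at 134.6 and 112.5 CPM in DMSO and at 139 and 117.7 CPM at 96 h. CAPRIN1, an RNA granule protein, stood at 339.7 ± 4.37 and 298.9 ± 22.6 CPM (log2 fold change -0.19, SE 0.085, adjusted p = 0.162).

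One editing enzyme rose. ADARB1, the deaminase ADAR2, stood at 98.2 and 109.2 CPM in DMSO, 104.8 and 107 CPM at 12 h, and 137 and 125.9 CPM at 96 h. It rose 1.27-fold at 96 h against DMSO (log2 fold change 0.35, SE 0.092, edgeR adjusted p = 0.0129), which was 1 call among 2 tested editing enzymes, beside 6.14% of all genes called higher. From 12 to 96 h it changed by 0.31 (SE 0.092, edgeR adjusted p = 0.0554), and DESeq2 called 1 of the 2 editing enzymes in that comparison. The call against DMSO was lost without replicate 1 of DMSO, without replicate 1 of 96 h and with only the 4 libraries compared, where the adjusted p reached 0.0942. Editing of CYFIP2 cannot be read from gene counts.

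Of 25 listed p53 targets 22 were tested, and by edgeR 3 rose and 0 fell from 12 to 96 h, beside 2.39% and 1.74% of all genes, with a list median of 0.098. Across the 20 alternatives 1 to 4 of the list were called. The cell cycle inhibitor CDKN1A stood at 18.1 and 18.7 CPM in DMSO, 17.8 and 16.0 CPM at 12 h, and 28.8 and 29.3 CPM at 96 h. It rose by 0.78 from 12 to 96 h (SE 0.13, adjusted p = 0.00102) and by 0.66 at 96 h against DMSO (SE 0.13, adjusted p = 0.0011), and both calls held in all 20 alternatives. The kinase PLK2 rose by 0.50 from 12 to 96 h (SE 0.094, adjusted p = 0.00243) and TIGAR, a regulator of glycolysis, by 0.74 (SE 0.15, adjusted p = 0.00451).

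The later call of PLK2 was lost without either 12 h library, with adjusted p up to 0.0556, and that of TIGAR without replicate 2 of 12 h (0.116). Against DMSO at 96 h, 3 p53 targets rose, again CDKN1A, PLK2 and TIGAR, and 1 fell, beside 6.14% and 6.86% of all genes. DESeq2 called 2 there, and the 20 alternatives called 2 to 7. TIGAR (log2 fold change 0.51, adjusted p = 0.0192) lost that call in 5 of 20 alternatives, among them those without replicate 1 of DMSO or replicate 2 of 96 h (adjusted p up to 0.0921). The gene that fell was cyclin G1, CCNG1 (log2 fold change -0.40, SE 0.12, adjusted p = 0.0301), which lost its call in 7 of 20 alternatives (adjusted p up to 0.423), among them those without replicate 1 of DMSO, replicate 2 of 12 h or replicate 2 of 96 h. At 12 h against DMSO 0 rose and 1 fell, beside 1.23% and 1.92% of all genes. The balance over all genes moved with the scaling: 39% of the calls at 12 h and 47.3% of those at 96 h against DMSO were higher, and 62.4% and 60.2% when only library size was used. The gene that fell at 12 h was AEN, an exonuclease gene named after its value was seen, with a log2 fold change of -0.40 (adjusted p = 0.0351), and it was lost in 8 of 20 alternatives (adjusted p up to 0.269), among them DESeq2 and those without replicate 2 of DMSO or any 12 or 24 h library. MDM2, the p53 ubiquitin ligase, was also named outside the rule for named genes. It had a log2 fold change of 0.095 from 12 to 96 h (edgeR adjusted p = 0.631), and the list median at 96 h against DMSO was 0.018.

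The nearest paralog of MEGF11, the engulfment receptor MEGF10, had too few counts to test, at 0.157 ± 0.11 CPM in DMSO and 0 and 0.375 CPM at 96 h. Of 9 listed MEGF family and multi-EGF receptors 5 were tested, and edgeR called 0 from 12 to 96 h (1 at an unadjusted p under 0.05, 0 by DESeq2). At 96 h against DMSO it also called 0 (2 at an unadjusted p under 0.05, 0 by DESeq2), with a median log2 fold change of 0.23. The shares over all genes were 4.13% and 13%, and across the 20 alternatives 0 to 1 of the 5 were called from 12 to 96 h and 0 to 2 at 96 h against DMSO. MEGF6, another member with EGF-like repeats, stood at 75.8 ± 9.21 CPM in DMSO and 89.0 ± 13.0 CPM at 96 h (log2 fold change 0.25, SE 0.11, edgeR adjusted p = 0.151).

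Engulfment genes, among them the adaptor that MEGF10 uses, gave 3 calls, all higher, of 11 tested at 96 h against DMSO, beside 6.14% of all genes called higher, with a median of 0.23 beside -0.0083 for all genes. The 20 alternatives called 2 to 4 of the 11. MFGE8, a secreted protein that bridges dying cells to phagocytes, stood at 7.54 and 10.4 CPM in DMSO, 14.3 and 14.9 CPM at 12 h, and 15.2 and 13.9 CPM at 96 h (log2 fold change at 96 h 0.73, SE 0.18, adjusted p = 0.00571). It had reached that level by 12 h (0.74, SE 0.17, adjusted p = 0.0186), the 1 call of the list at 12 h (3.15% of all genes were called), lost without replicate 1 of DMSO or either 12 h library, and its change from 12 to 96 h was -0.0016 (SE 0.17). GULP1, the adaptor of MEGF10, rose by 0.43 at 96 h (SE 0.12, adjusted p = 0.0158) and the receptor LRP1 by 0.31 (SE 0.095, adjusted p = 0.0327). From 12 to 96 h edgeR called 0 of the 11 (2 at an unadjusted p under 0.05, 1 by DESeq2), beside 4.13% of all genes. The 96 h call was lost without 1 of 2 libraries for MFGE8 (replicate 1 of DMSO or of 96 h) and for GULP1 (replicate 2 of DMSO or replicate 1 of 96 h). LRP1 lost it without any 1 of 5 libraries (replicate 1 of DMSO, of 12 h or of 24 h, and replicate 2 of 24 h or of 96 h).

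The genes next to PRR36, MEGF11 and CYFIP2 did not pass the test. The 3 nearest tested genes on each side that GENCODE 29 places came to 18, and edgeR called 0 of them from 12 to 96 h (4 at an unadjusted p under 0.05, 1 of them higher, and 0 by DESeq2). Their log2 fold changes ran from -0.37 to 0.56. At 96 h against DMSO edgeR again called 0 of 18 (2 at an unadjusted p under 0.05, 0 by DESeq2). The shares over all genes were 4.13% and 13%, and the 20 alternatives called 0 from 12 to 96 h and 0 to 2 at 96 h against DMSO. With 18 genes, 0 calls from 12 to 96 h is near the share over all genes and does not set the neighbours apart. EVI5L, 3.74 kb from PRR36 on the other strand, had a log2 fold change of 0.22 from 12 to 96 h (SE 0.11, adjusted p = 0.28), and the kinase gene MAP2K7, 29.5 kb away on the other side, 0.24 (SE 0.10, adjusted p = 0.223). RAB11A, a GTPase of recycling endosomes 3.09 kb from MEGF11, had 0.017 (SE 0.094, adjusted p = 0.946) and DIS3L, an exosome nuclease gene 39.5 kb away, 0.032 (SE 0.094, adjusted p = 0.898).

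CYFIP2 lies in a sparser stretch of expressed genes. The Mediator subunit gene MED7, 107 kb away, had a log2 fold change of -0.28 (SE 0.20, adjusted p = 0.507), and THG1L, a transfer RNA enzyme gene 336 kb away, -0.37 (SE 0.14, adjusted p = 0.143). No gene that overlaps any of the 3 on the chromosome was abundant enough to test. ADAM19, which overlaps CYFIP2 on the other strand, held 5 counts over the 10 libraries, and an overlapping non-coding gene at PRR36 held 6. The libraries were stranded, but whether the counting used strand is not given in the labels.

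**Figure D4:**
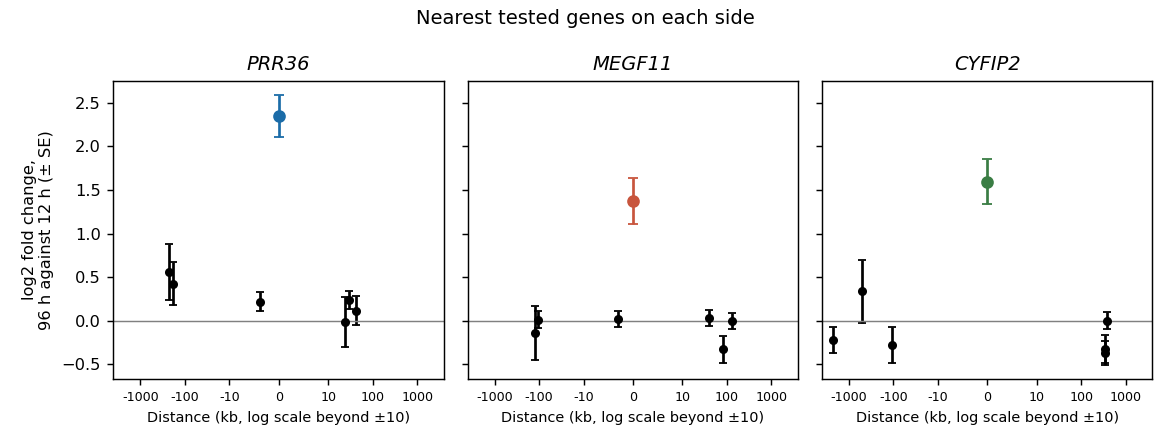
The log2 fold change from 12 to 96 h (vertical axis, ± 1 SE from edgeR) of the 3 nearest tested genes on each side of PRR36, MEGF11 and CYFIP2 (black), by distance in kb from the gene (horizontal axis, linear within 10 kb and logarithmic beyond, negative toward lower coordinates). The gene itself is in colour at 0, and the 18 neighbours lie between -0.37 and 0.56.

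Genes with the most similar course were sought among 679 named genes that averaged 1 CPM or more and whose group means spanned at least 1 on the log2 scale. Likeness was the Pearson correlation of log2 CPM over the 10 libraries, which the genes share. The closest to PRR36 were the secreted mucin MUC6 (0.968), the Arf GTPase-activating protein gene ADAP1 (0.964), PLEKHA6 (0.962), STUM (0.957) and the matrix protein gene MATN2 (0.954). MUC6 went from 214 to 810.6 CPM between DMSO and 96 h, and MATN2 from 11.1 to 44.3 CPM. Like PRR36, MUC6 had moved little by 12 h (log2 fold change -0.024).

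The closest to MEGF11 were FBXL16 (0.971), the Ral exchange factor gene RALGPS1 (0.962), the muscle kinase adaptor gene DOK7 (0.960), the neurotrophin receptor gene NGFR (0.958) and RELN (0.942), which encodes the secreted protein reelin. NGFR rose from 2.11 to 11.7 CPM and already had a log2 fold change of 1.12 at 12 h. The closest to CYFIP2 were the synaptic adhesion gene CLSTN3 (0.9465), C11orf71 (0.944), the cell junction gene LSR (0.930), MDGA1 (0.918), a membrane-anchored adhesion gene, and PLEKHA6 (0.899). CLSTN3 went from 7.925 to 17.4 CPM. PLEKHA6 was among the closest for both PRR36 and CYFIP2, and went from 177.3 to 356.5 CPM.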

How the data were processed

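The deposited table holds raw counts per gene, whole numbers with no normalization. The submitters' processing notes name bcl2fastq, FastQC, Trim Galore, cutadapt, STAR, featureCounts and GRCh38. For versions, annotation and strand setting: not given in the sources used here. Of 63140 identifiers 62541 matched a symbol.

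Genes kept by filterByExpr (16382) were fitted over all 10 libraries with 1 mean per group in edgeR 4.0.16 (R 4.3.3), with TMM factors and the quasi-likelihood F test. The fit was also run on simulated data in which every gene had the same spread, unlike the genes here. A call is a Benjamini-Hochberg adjusted p under 0.05 over all genes of a comparison. The SE is the size of the log2 fold change over the square root of F. Correlations use log2 CPM with a prior count of 2. DESeq2 1.42.0 was an alternative. Over all genes it called 528 from 12 to 96 h, 1559 at 96 h against DMSO and 365 at 12 h against DMSO. Lengths, GC content and neighbours come from GENCODE 29 and promoters from RefSeq.

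The genes and lists were chosen with earlier results of these data known. Named genes are the 3 genes, BRD9, the WAVE complex, up to 4 called or else the 2 most abundant genes of each other list, neighbours, and the 5 most similar genes each. AEN and MDM2 were named outside this rule. One gene that this rule names is not reported here.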

Additional observations from a re-analysis of the deposited data

How the results depend on the processing

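The rises of PRR36, MEGF11 and CYFIP2 from 12 to 96 h kept their sign in 20 alternatives and moved by less than the replicate spread. The genes were chosen for this rise in the same libraries, so this does not test it. Leaving out 1 of 2 libraries moves a group mean by less than their spread, whatever the gene. With other scalings, other filters, a replicate block or DESeq2, 0 WAVE complex genes were called from 12 to 96 h. Leaving out 1 library gave log2 fold changes of 2.05 to 2.655 for PRR36, 1.07 to 1.69 for MEGF11 and 1.41 to 1.80 for CYFIP2. For the 3 genes the offset for transcript GC content gave 2.26, 1.34 and 1.57. Counts over all genes moved more. From 12 to 96 h edgeR called 676 genes, and 1481 with the GC offset, 1058 without replicate 2 of DMSO and of 96 h together, and 154 to 1110 without 1 library (1108 and 1110 without replicate 1 or 2 of DMSO, 154 and 210 without replicate 1 or 2 of 12 h, 434 without replicate 2 of 96 h). At 96 h against DMSO it called 2129, 3320 with the GC offset, 1267 with only the 4 libraries compared, and 1612 to 2468 without 1 library. At 12 h against DMSO it called 516, 1259 with the GC offset, 1112 without the 2 libraries, and 106 to 771 without 1 library (106 and 129 without replicate 1 or 2 of 12 h). The cause was not tested. Where 1 library is left in a group, it is assumed to vary like the other groups.

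Replicate numbers gave little sign of pairing between the libraries. Deviations from the group means correlated between -0.123 and 0.186 over the 10 pairs of groups, 1 of them over 0.1. That pair was DMSO with 96 h (0.186), the groups whose second replicates differed most from the rest. Not every library correlated best with its own number. With replicate number as a block, 596, 2031 and 468 genes were called from 12 to 96 h, at 96 h against DMSO and at 12 h against DMSO, and the rises of PRR36, MEGF11 and CYFIP2 were 2.35, 1.37 and 1.60.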
